A study of Mus musculus with 18 samples.

Results

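The expressed ribosomal protein pseudogenes of mouse embryonic fibroblasts (MEFs) are described here across 6 groups of cells. The members were the loci that carried a single gene symbol of the form Rpl, Rps, Rplp or Rpsa followed by -ps, with or without a number, and that were selected on their level, at least 1 FPKM in at least 1 of the 6 groups. FPKM is a read count scaled to transcript length and to the size of the library. Of 51499 loci in the deposited table, 287 carried such a symbol and 110 passed this level. The other 177 stayed under 1 FPKM in every group, and 92 of these were listed at 0 in all 6. The level that chose the members is the same quantity that is described, so all counts over the members are descriptions and none was tested.

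The study compared Ago2+/+ with Ago2-/- MEFs, each given DMSO (the solvent), tunicamycin, an inhibitor of protein N-glycosylation, or thapsigargin, which empties the calcium store of the endoplasmic reticulum; both drugs cause endoplasmic reticulum stress, and thapsigargin was used at 500 nM. Each of the 6 groups held 3 libraries of total RNA, 18 in all. The study names no more than 1 line of MEFs per genotype. The study states that its cell lines were not authenticated and that the Ago2-/- cells were checked by western blot for the absence of Ago2 protein. The sample titles and the table call the Ago2+/+ groups DCR1 and the Ago2-/- groups AGO2. The table gives 1 FPKM value per group, made by the authors from the 3 libraries together, so these values carry no replicate error or depth, and differences between groups were not tested here. FPKM values are listed in the order DMSO, tunicamycin and thapsigargin, first for the groups labelled Ago2+/+ and then for those labelled Ago2-/-.

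Several measurements went against the group labels. Ago2, the Argonaute protein targeted in the knockout, had 22.1, 5.75 and 17 FPKM under the Ago2+/+ label, and 5.61, 15.5 and 20.7 FPKM under the Ago2-/- label. Xist, the RNA of the inactive X chromosome, was at 46.6 FPKM in Ago2+/+ DMSO and 33.5 FPKM in Ago2-/- thapsigargin and no higher than 0.0574 FPKM elsewhere, in a locus that the table gives with 2 further symbols. The Y-linked gene Ddx3y was listed at 0 except in Ago2+/+ thapsigargin (23.3 FPKM) and Ago2-/- tunicamycin (24.7 FPKM). The labels of 4 libraries also name both genotypes in different fields. The groups are therefore called by their labels throughout, and a difference between them is a difference between these labelled groups. Of the fibroblast genes, Vim ranged from 952 to 2634 FPKM and Col1a1 from 5.97 to 651 FPKM, whereas Thy1 was listed at 0 in all groups. Of the leukocyte genes, Cd68 ranged from 1.13 to 1.82 FPKM, Ptprc stayed at or under 0.0758 FPKM and Adgre1 was listed at 0 in all groups. The epithelial genes Krt8, Cdh1 and Epcam stayed at or under 0.65, 0.181 and 0.0977 FPKM, and the endothelial Kdr, Pecam1 and Cdh5 at or under 0.427, 0.116 and 0.0289 FPKM.

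Across all expressed loci the groups fell into 3 close pairs that cross the labels. Pair A is Ago2+/+ tunicamycin with Ago2-/- DMSO, pair B is Ago2+/+ thapsigargin with Ago2-/- tunicamycin, and pair C is Ago2+/+ DMSO with Ago2-/- thapsigargin. Ago2, Xist and Ddx3y follow these pairs rather than the labelled genotypes. As background for each comparison below, the 12659 single-symbol loci with at least 1 FPKM in some group were used, and a locus was counted as different where log2(FPKM + 1) differed by at least 1, that is, at least 2-fold.

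Ribosomal proteins form the large (Rpl) and small (Rps) subunits of the ribosome, and their mRNAs are among the most abundant in growing cells. Such abundant mRNAs are often copied back into DNA and inserted elsewhere in the genome, which leaves processed pseudogenes that lack introns and usually lack a promoter of their own. A processed pseudogene can nevertheless be transcribed from a promoter near its insertion site. Since its sequence differs little from the parent mRNA, short reads of parent and copy are hard to tell apart, and the levels of near-identical copies are therefore uncertain.

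The members were 58 large-subunit and 52 small-subunit pseudogenes of 46 parent genes. Rpsa, which codes for a small-subunit protein also known as the laminin receptor, had the most members, 8 in all, followed by Rps15a with 6. In the GENCODE annotation of GRCm38, 102 of the 110 are processed pseudogenes, 4 are transcribed processed pseudogenes and 4 are annotated as protein coding. Each has a single exon, and the median length was 481.5 bases. They lie on 20 chromosomes, 10 of them on X, and 40 lie inside another gene. Identity to the most similar annotated transcript of the parent had a median of 98.87% and a lowest value of 89.34%. In 13 members the aligned part was identical to the parent, and 100 of 110 shared an unbroken run of at least 100 bases with it. In 84 members a transcript of another gene, the parent included, matched at 98% or more over at least 90% of the length. Copies beyond the parent were not counted apart.

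Stretches of 60 bases from the 5 members with the largest range, and from Rps13-ps4, Rps2-ps13 and Rps2-ps6 as further copies described below, are shown beside their parents, to show how few bases separate a copy from its parent. Each window holds only some of the differences. Sequences are GENCODE transcripts on GRCm38, read 5′ to 3′ on the strand of the gene. Parent bases are counted from the start of the coding sequence, and capitals mark the positions at which the sequences of a set differ within the window. Rpl5-ps1 (chromosome 1, plus strand, 14865072 to 14865965) differed from Rpl5 at 10 of 891 aligned coding bases, 3 of them in the window chr1:14865637-14865696, which matches coding bases 566 to 625 of Rpl5.
Rpl5: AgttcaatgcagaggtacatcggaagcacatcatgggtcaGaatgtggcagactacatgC
Rpl5-ps1: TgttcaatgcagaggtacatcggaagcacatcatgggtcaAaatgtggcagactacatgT

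Rps13-ps1 (chromosome 8, plus strand, 87047689 to 87048226) and Rps13-ps4 (chromosome 8, minus strand, 119602170 to 119602625, inside Taf1c) differed from the coding sequence of Rps13 at 2 and 3 of 453 bases. In the windows chr8:87047816-87047875 and chr8:119602470-119602529, which match coding bases 97 to 156, Rps13-ps1 had no difference and Rps13-ps4 had 2.
Rps13: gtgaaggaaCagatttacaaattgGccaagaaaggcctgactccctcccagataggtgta
Rps13-ps1: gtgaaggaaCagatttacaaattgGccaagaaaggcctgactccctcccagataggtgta
Rps13-ps4: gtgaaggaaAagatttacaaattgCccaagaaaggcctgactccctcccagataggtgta

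Rpl15-ps3 (chromosome 9, minus strand, 22185607 to 22186221) was identical to the whole coding sequence of Rpl15. Rpl15-ps2 (chromosome 9, plus strand, 72060937 to 72061549) lies inside Tcf12 on the opposite strand and differed from Rpl15 at 8 of 610 coding bases. The windows are chr9:22185854-22185913 and chr9:72061243-72061302, and match coding bases 309 to 368 of Rpl15.
Rpl15: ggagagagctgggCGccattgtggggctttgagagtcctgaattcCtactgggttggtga
Rpl15-ps3: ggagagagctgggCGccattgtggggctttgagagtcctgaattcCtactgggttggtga
Rpl15-ps2: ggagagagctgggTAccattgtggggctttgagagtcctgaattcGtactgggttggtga

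Rpl7a-ps11 (chromosome X, plus strand, 166854211 to 166855011) differed from Rpl7a at 2 of 798 coding bases, 1 of them in the window chrX:166854393-166854452, which matches coding bases 183 to 242.
Rpl7a: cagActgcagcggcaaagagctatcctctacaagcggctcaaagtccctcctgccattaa
Rpl7a-ps11: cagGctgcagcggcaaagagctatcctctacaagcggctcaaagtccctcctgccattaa

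Rps2-ps13 (chromosome X, plus strand, 52898588 to 52899469) and Rps2-ps6 (chromosome 14, minus strand, 76236691 to 76237545) each differed from Rps2 at 7 bases, out of 879 and 855 aligned coding bases. The alignment of Rps2-ps6 also held 1 gap, and its identity to the parent was 96.47%, against 99.21% for Rps2-ps13. The windows chrX:52898866-52898925 and chr14:76237232-76237291 match coding bases 279 to 338 of Rps2, and there Rps2-ps13 had 1 difference from the parent and Rps2-ps6 had 2.
Rps2: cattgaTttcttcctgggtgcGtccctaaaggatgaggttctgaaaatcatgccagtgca
Rps2-ps13: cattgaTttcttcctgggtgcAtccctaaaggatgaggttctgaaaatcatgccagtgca
Rps2-ps6: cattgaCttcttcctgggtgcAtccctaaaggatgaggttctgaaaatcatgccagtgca

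Most of the expressed pseudogenes were detected in every group. At 1 FPKM, 96, 96 and 92 members were on in the Ago2+/+ groups and 97, 90 and 99 in the Ago2-/- groups. All 6 groups had 79 members on, or 71.8%, against 78.8% of the background loci. Of the other 31, 6 were on in exactly 1 group, 8 in 2, 2 in 3, 7 in 4 and 8 in 5. Levels were low beside the parents: the median of the mean FPKM over the groups was 20 for the members and 913 for the parents. Of the members, 62 had a mean of at least 10 FPKM and 29 of at least 100. Summed over all members, FPKM was 9810, 8388 and 8432 in the Ago2+/+ groups and 9166, 7095 and 9930 in the Ago2-/- groups, and summed over the parents it ranged from 39178 to 48797. In bulk RNA, fewer cells of a type and less RNA per cell cannot be told apart.

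Among the members that passed by the smallest margin were Rpl21-ps6 and Rpl30-ps9, whose highest values were 1.18 and 1.29 FPKM. The nearest loci left out were Rpl36a-ps3, Rps2-ps5 and Rps19-ps7, whose highest values were 0.964, 0.952 and 0.93 FPKM.

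The largest differences were of copies that were abundant in some groups and low in others. Rpl7a-ps11, a copy of the large-subunit gene Rpl7a, stood at 116, 359 and 103 FPKM in the Ago2+/+ groups and at 828, 6.95 and 8.55 FPKM in the Ago2-/- groups. Its range over the groups, 6.71 on the log2(FPKM + 1) scale, was the largest of all members, and it differed even within each close pair. The parent Rpl7a ranged only from 270 to 487 FPKM. Another Rpl7a copy, Gm8226, which carries no -ps symbol and is no member, was at 106 FPKM in Ago2-/- thapsigargin and at or under 0.494 FPKM in the other groups.

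Rpl5-ps1, a copy of the gene for the 5S RNA-binding protein Rpl5, was at 1.04, 71.2 and 0.354 FPKM in the Ago2+/+ groups and at 58.5, 0.188 and 0.371 FPKM in the Ago2-/- groups. It was thus high in both groups of pair A and near or under the detection level in the other 4. Rpl5 itself stood between 772 and 932 FPKM in all groups, a range of 0.27 on the log2 scale, and the second copy, Rpl5-ps2, between 11.9 and 23.6 FPKM.

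Rps13-ps1, a copy of the small-subunit gene Rps13, was high in pair C only, with 86.6, 2.52 and 2.22 FPKM in the Ago2+/+ groups and 1.97, 0.919 and 89.8 FPKM in the Ago2-/- groups. Rps13-ps4 was also highest in pair C, with 89.7, 27.9 and 28.4 FPKM and then 31.5, 21.9 and 89 FPKM. The parent Rps13 ranged from 528 to 783 FPKM and did not separate pair C from pair A. Rps15a-ps8, only 92.25% identical to its parent Rps15a, was likewise present in pair C alone, at 10.6 and 12.4 FPKM, and at or under 0.0432 FPKM elsewhere. Rps15a ranged from 877 to 1179 FPKM.

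Some members were high in a single group. Rpl15-ps3 stood at 76.9 FPKM in Ago2-/- thapsigargin and between 1.06 and 2.98 FPKM in the other 5 groups, whereas Rpl15 was at 227, 178 and 382 FPKM and then 187, 342 and 236 FPKM. Rpl17-ps8 reached 32.2 FPKM in Ago2-/- tunicamycin and stayed at or under 0.845 FPKM elsewhere. Heph, the gene around it on the same strand, had at most 0.0393 FPKM in any group. Rpl17-ps4 reached 4.23 FPKM in Ago2+/+ DMSO, with at most 0.392 FPKM elsewhere, and Rpl35a-ps3 had 1.83 FPKM in Ago2-/- thapsigargin and was listed at 0 in the other 5 groups. These members are listed because 1 group was high, so that group differs from its partner in the close pair by construction.

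Other members were low or missing in a single group or pair. Rpl15-ps2 was at 57.7, 91.9 and 0.939 FPKM in the Ago2+/+ groups and at 96.1, 13.5 and 63.5 FPKM in the Ago2-/- groups, so that pair B was low while its host gene Tcf12 kept 51.7 to 61.1 FPKM throughout. Gm10020 and Gm8885, Rpl15 copies without a -ps symbol, were also low in pair B, at 1.76 and 1.17 FPKM and at 0.186 and 0.13 FPKM. The parent Rpl15, in contrast, was highest in pair B, at 382 and 342 FPKM, and lowest in pair A, at 178 and 187 FPKM. Rps6-ps3 was at 0.0976 FPKM in Ago2+/+ tunicamycin and between 5.32 and 11.6 FPKM in the other groups. Rpl35a-ps2 was at 0.0857 FPKM in Ago2-/- DMSO and between 2.16 and 4.31 FPKM in the others.

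**Figure D1:**
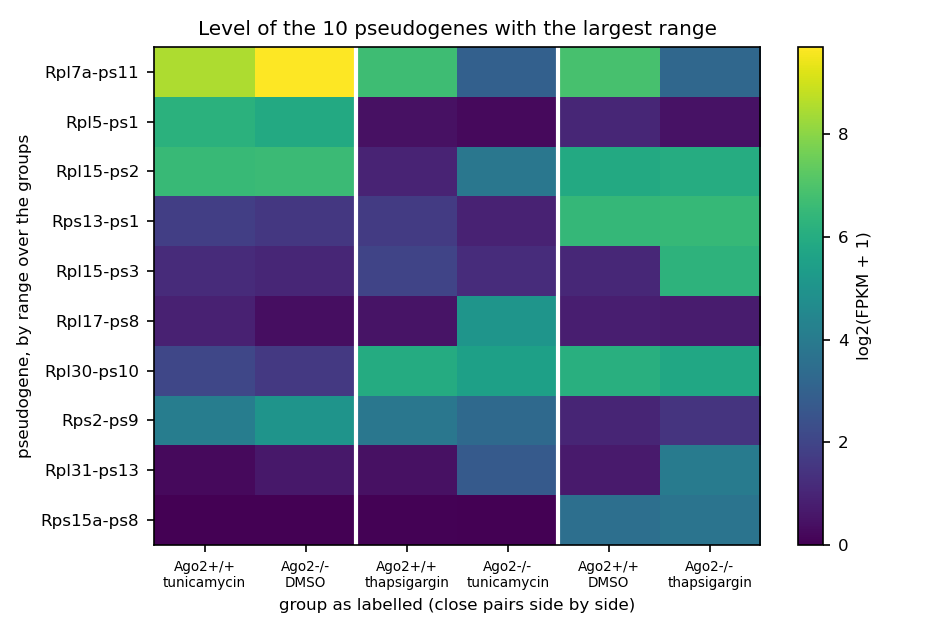
Level of the 10 members with the largest range, as log2(FPKM + 1), 1 column per group with the partners of each close pair side by side (pairs A, B and C from left to right) and 1 row per pseudogene. Rpl5-ps1 is bright in pair A only and Rps13-ps1 and Rps15a-ps8 in pair C only, while Rpl15-ps3 and Rpl17-ps8 are bright in 1 group each.

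For most members the parent gene varied less over the groups. A range of at least 2-fold was found for 42 members, or 38.2%, against 35% of the background loci, and of at least 4-fold for 24, or 21.8%, against 11.3%. Of the 46 parents, 7 had a range of at least 2-fold and 2 of at least 4-fold. The median range on the log2 scale was 0.85 for the members, 0.52 for the parents and 0.76 for the background loci. In 78 of 110 members the range was larger than that of the parent. The 2 highest groups formed a close pair for 46 members, or 41.8%, against 70.3% of the background loci. Of the 24 members with a 4-fold range, both highest groups were pair A in 6, pair C in 6, pair B in 0, and no close pair in the remaining 12. This split was not made for background loci with a 4-fold range, so it cannot be read as particular to the pseudogenes.

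**Figure D2:**
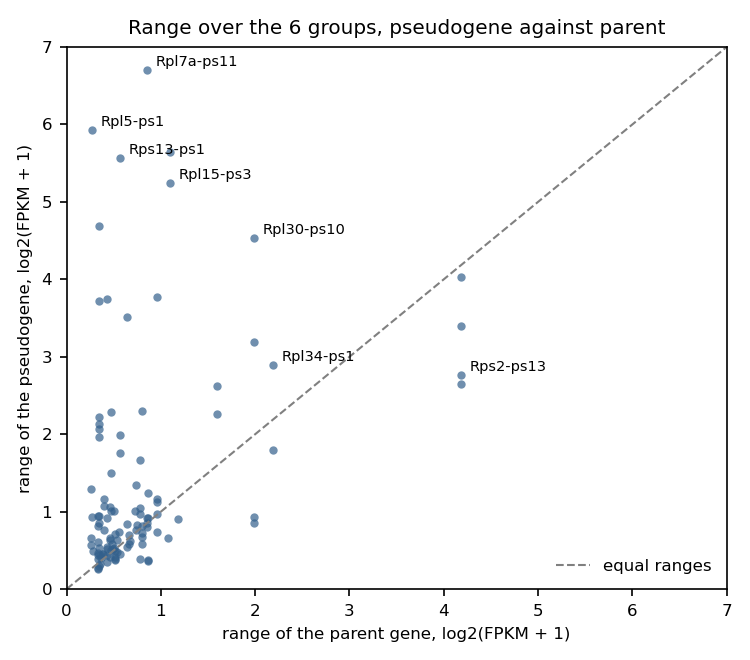
Range over the 6 groups of each of the 110 members (y axis) against the range of its parent gene (x axis), both in log2(FPKM + 1), with a dashed line where both are equal. Rpl7a-ps11, Rpl5-ps1 and Rps13-ps1 lie high above parents with ranges under 1, and the members below the line at the right are the 4 copies of Rps2.

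In the families of Rps2, Rps18 and Rpl34 the parent itself differed between groups, and single copies were high where the parent was low. Rps2, a small-subunit gene, stood at 124, 2134 and 1530 FPKM in the Ago2+/+ groups and at 2270, 1361 and 147 FPKM in the Ago2-/- groups, low in both groups of pair C. Rps2-ps13 had the opposite pattern, with 957, 247 and 149 FPKM and then 184, 267 and 1013 FPKM. Rps2-ps10 was also highest in pair C, at 139 and 105 FPKM, and between 12.3 and 25.2 FPKM elsewhere. The other two members of this family went with the parent: Rps2-ps9 was at 0.993 and 1.73 FPKM in pair C and between 8.96 and 31.5 FPKM elsewhere, and Rps2-ps6 at 0.663 and 0.5 FPKM in pair C and between 4.8 and 8.38 FPKM elsewhere.

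Rps18 stood at 826, 2306 and 2493 FPKM and then 2409, 1970 and 884 FPKM, again low in pair C. Rps18-ps3 was high there, at 15.8 and 13.8 FPKM against 2.51 to 5.51 FPKM elsewhere, and Rps18-ps1 was low there, at 0.222 and 0.579 FPKM against 5.08 to 6.49 FPKM elsewhere. Most of the signal in pair C lay in Gm10260, a Rps18 copy without a -ps symbol, at 1080 and 1255 FPKM against 6.09 to 8.48 FPKM in the other groups. Rpl34 was at 241, 1019 and 921 FPKM and then 1024, 740 and 224 FPKM. Rpl34-ps1 mirrored it, with 1029, 143 and 255 FPKM and then 138, 206 and 891 FPKM, and Rpl34-ps2 was also highest in pair C, at 6.44 and 6.81 FPKM.

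In the Rpl30 family some copies were low where the parent was low and others were not. Rpl30 stood at 618, 155 and 607 FPKM and then 165, 447 and 518 FPKM, low in pair A. Rpl30-ps10 was low in the same groups, with 69, 3.2 and 61.1 FPKM and then 2.02, 45.1 and 53.4 FPKM, and Rpl30-ps1 too, with 22.5, 1.6 and 22.7 FPKM and then 1.85, 16.3 and 18.5 FPKM. Both copies differ from the parent at 3 coding bases of 345. Rpl30-ps9 was highest in pair A instead, at 1.29 and 1.23 FPKM against 0.267 to 0.789 FPKM elsewhere. Gm12191, an abundant Rpl30 copy without a -ps symbol, was at 433, 543 and 718 FPKM and then 603, 553 and 594 FPKM and was not low in pair A. Both Rpl30-ps9 and the remaining member, Rpl30-ps8, had a range under 1 on the log2(FPKM + 1) scale.

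The FPKM summed over parent and copies varied less than the parent in these families. A family was taken as all single-symbol loci at least 90% identical to the parent over at least 80% of its coding sequence. Copies in loci with several symbols were left out. For Rps2, with 45 such loci, the highest group was 18.3-fold above the lowest for the parent and 1.92-fold for the sum. The folds were 4.57 and 1.34 for Rpl34, 3.02 and 1.26 for Rps18, 2.15 and 1.22 for Rpl15, 3.99 and 2 for Rpl30, and 2.12 and 1.46 for Rps27a. Rpl7 was the exception among the 7 parents with a 2-fold range, at 2.27 for the parent and 2.28 for the sum. In Rpl7a the sum varied more than the parent, 3.67-fold against 1.81-fold, as Rpl7a-ps11 alone spanned 6.95 to 828 FPKM. Over all 46 families the sum had a smaller range than the parent in 21. The share of the Rps2 sum that lay in the parent was 8.15% and 9.06% in pair C and 68.8% to 81.6% in the other groups. The sources used here do not state how reads that match several copies were assigned, and the part of this step in these values was not tested.

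**Figure D3:**
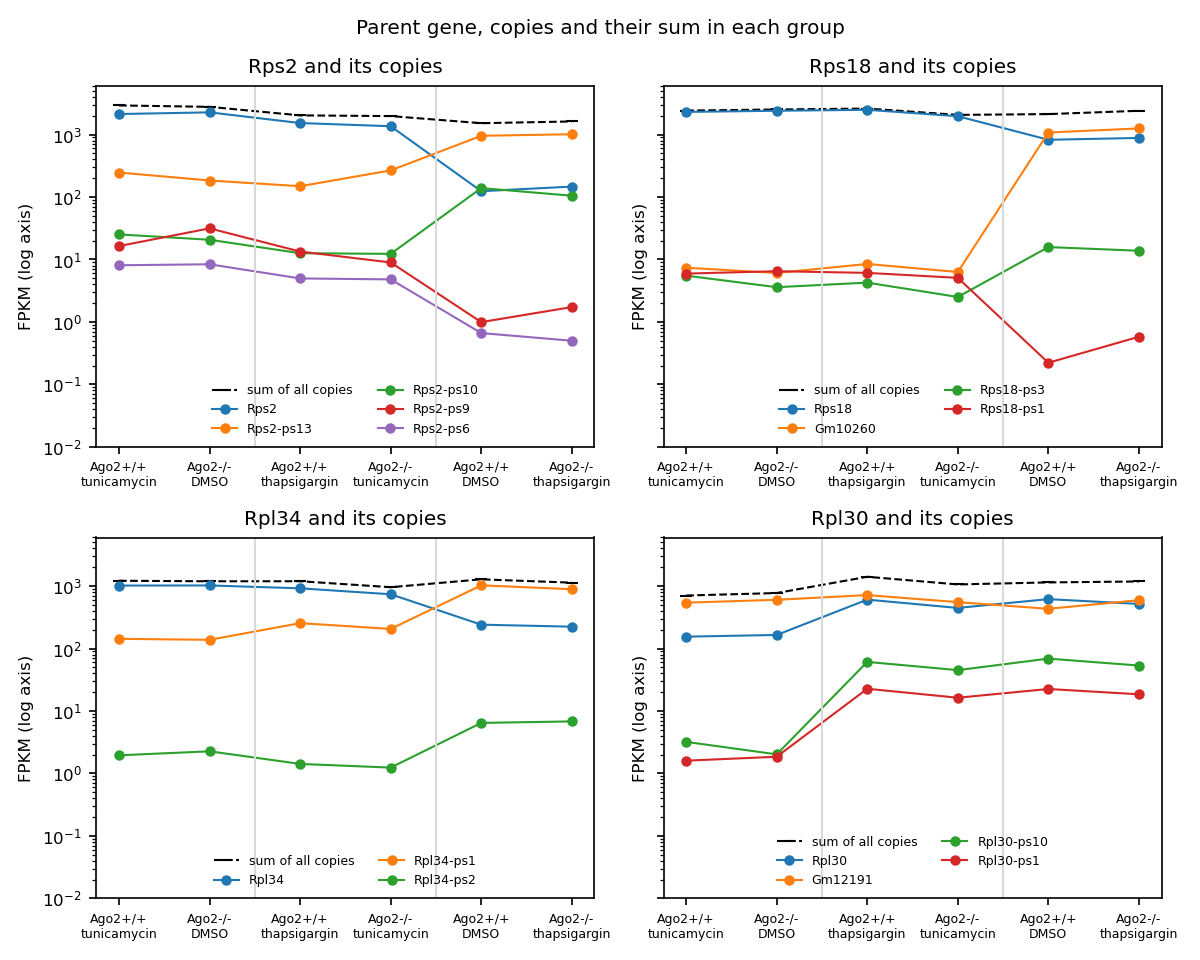
FPKM (log axis) of Rps2, Rps18, Rpl34 and Rpl30, of some of their copies, and of the sum over parent and single-symbol copies (dashed). Groups are as labelled, with close pairs A, B and C from left to right, and lines only join the points of 1 locus or sum. In pair C Rps2, Rps18 and Rpl34 are low while Rps2-ps13, Gm10260 and Rpl34-ps1 are high, and in pair A Rpl30 is low together with Rpl30-ps10 and Rpl30-ps1 but not with Gm12191.

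A large range was not limited to the nearest copies. At least 2-fold ranges were found in 10 of 27 members with under 98% identity to the parent, in 9 of 33 with 98% to 99%, and in 23 of 50 with at least 99%. The median of the mean FPKM in the same classes was 4.39, 17.8 and 57, so identity moved together with level. Of the 24 members with a 4-fold range, 12 were at least 99% identical to the parent and 8 lay inside another gene. In 21 of the 24 a transcript of another gene, the parent included, matched at 98% or more. Rps12-ps26, the least similar member at 89.34% identity, lies inside Nol11 on the same strand. It was at 1.05, 6.28 and 0.478 FPKM and then 4.66, 0.494 and 1.17 FPKM, highest in pair A, while Nol11 ranged from 34.5 to 52.7 FPKM. Rps2-ps10 and Rpl31-ps13 lie inside Pde6a and Naip1 on the opposite strand, and neither host exceeded 0.0414 FPKM in any group. Rpl31-ps13 was at 5.63 FPKM in Ago2-/- tunicamycin and 15.2 FPKM in Ago2-/- thapsigargin and at or under 0.615 FPKM in the other groups.

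**Figure D4:**
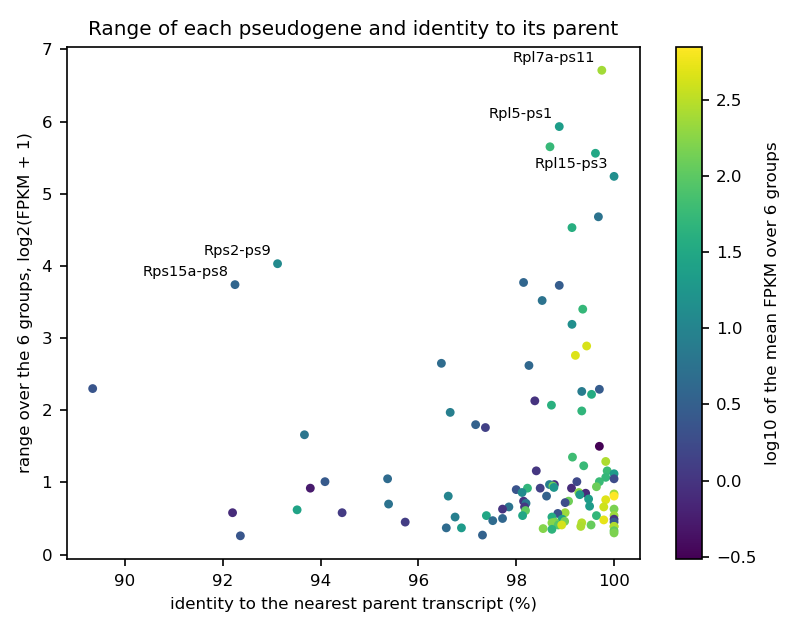
Range of each of the 110 members over the 6 groups, in log2(FPKM + 1) (y axis), against its identity to the nearest parent transcript in percent (x axis), with the colour giving log10 of the mean FPKM. Large ranges occur at 92.25% and 93.12% identity, in Rps15a-ps8 and Rps2-ps9, and at 100%, in Rpl15-ps3.

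Of the 110 members, 68 had a range under 2-fold, and 44 of these had a mean FPKM under 10% of that of the parent. Rpsa-ps5, for example, stood between 2.07 and 2.68 FPKM and Rpsa between 1402 and 1762 FPKM. The 6 highest of the 68 follow, and the first was Rps12-ps3, identical to Rps12 over its 494 bases and annotated as protein coding, at 635, 575 and 1009 FPKM and then 606, 756 and 623 FPKM. Rps12 stood at 649, 654 and 1114 FPKM and then 640, 794 and 680 FPKM, so both were highest in Ago2+/+ thapsigargin. Rpl23a-ps3 ranged from 434 to 607 FPKM, Rpl19-ps11 from 331 to 562, Rpl14-ps1 from 355 to 470, Rps27a-ps2 from 312 to 495 and Rpl39-ps from 261 to 356. The lowest identity to the parent among these was 98.93%, in Rpl14-ps1.

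Within the groups labelled Ago2+/+, tunicamycin differed from DMSO by at least 2-fold in 19 of 110 members, 17.3%, against 14.6% of the background loci. Of these, 7 were higher with tunicamycin, led by Rpl5-ps1 (5.14 on the log2(FPKM + 1) scale) and Rps2-ps9 (3.12), and 12 were lower, led by Rps13-ps1 (-4.64), Rpl30-ps10 (-4.06) and Rps15a-ps8 (-3.53). The parent differed by at least 2-fold in the same direction for 5 of the 19, in the opposite direction for 5, and by less for 9. At 4-fold the count was 11 members, 10%, against 4.78%. Thapsigargin differed from DMSO in 15 members, 13.6%, the same as the 13.6% of the background, with 4 higher and 11 lower. Rps2-ps9 (2.86) was among those higher, and Rpl15-ps2 (-4.92) and Rps13-ps1 (-4.76) had the lowest differences. The parent went the same way for 3, the opposite way for 5 and differed by under 2-fold for 7, and 10 members, 9.09%, passed 4-fold against 4.6%.

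Within the groups labelled Ago2-/-, tunicamycin differed from DMSO in 16 members, 14.5%, against 18.9% of the background, with 7 higher and 9 lower. Rpl17-ps8 (4.68) and Rpl30-ps10 (3.93) were the highest, and Rpl7a-ps11 (-6.71) and Rpl5-ps1 (-5.65) the lowest. The parent went the same way by at least 2-fold for 2 of these, the Rpl30 copies, and differed by under 2-fold for 14. At 4-fold the count was 7 members, 6.36%, against 5.55%. Thapsigargin differed from DMSO in 22 members, 20%, against 15% of the background, with 14 higher and 8 lower. Rpl15-ps3 (5.24), Rps13-ps1 (4.94) and Rpl30-ps10 (4.17) were higher, and Rpl7a-ps11 (-6.44) and Rpl5-ps1 (-5.44) lower. The parent went the same way for 5, the opposite way for 5 and differed by under 2-fold for 12, and 15 members, 13.6%, passed 4-fold against 4.8%.

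Between the labelled genotypes, Ago2-/- DMSO differed from Ago2+/+ DMSO in 19 members, 17.3%, against 14.9% of the background, with 7 higher and 12 lower. Rpl5-ps1 (4.86) and Rps2-ps9 (4.03) were higher, and Rps13-ps1 (-4.89) and Rpl30-ps10 (-4.53) lower; 12 members, 10.9%, passed 4-fold against 4.98%. With tunicamycin, 15 members differed, 13.6%, against 18.3% of the background, with 6 higher in Ago2-/- and 9 lower, and 9, or 8.18%, passed 4-fold against 5.43%. With thapsigargin, 22 members differed, 20%, against 14.4% of the background, with 16 higher in Ago2-/- and 6 lower, and 11, or 10%, passed 4-fold against 4.44%. Rpl15-ps2 (5.06), Rps13-ps1 (4.82) and Rpl15-ps3 (4.29) led those that were higher, and Rpl7a-ps11 (-3.44) those that were lower. These comparisons share groups and are not independent of each other.

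Among the parents, the count that differed by at least 2-fold was 2 to 4 of 46 in each of these 7 comparisons. Of a list of 80 cytosolic ribosomal protein genes, 79 had a single locus, and 10 of these had a range of at least 2-fold over the groups. The median difference over the 79 genes lay between -0.34 and 0.1 on the log2 scale in the 7 comparisons, and over the members between -0.32 and 0.06.

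Inside the close pairs few loci differed, and the share was higher among the pseudogenes than in the background. Pair A differed in 5 members, 4.55%, against 1.22% of the background loci, pair B in 8, 7.27%, against 1.23%, and pair C in 5, 4.55%, against 2.12%. Differences of 4-fold were found in 2, 5 and 4 members, 1.82%, 4.55% and 3.64%, against 0.6%, 0.49% and 0.656%. None of the 46 parents differed by 2-fold within a pair, a count near the low background shares for so few loci. Rpl7a-ps11 differed within all 3 pairs, by -1.20, 3.71 and 3.62 on the log2 scale in pairs A, B and C, taking the Ago2+/+ group minus the Ago2-/- group. Rps6-ps3 and Rpl35a-ps2 separated the groups of pair A, Rpl17-ps8 and Rpl15-ps2 those of pair B, and Rpl15-ps3 and Rpl31-ps13 those of pair C. Over the other 12 pairs of groups, the share of members that differed was 10% to 20%, against 13.6% to 18.9% of the background.

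**Figure D5:**
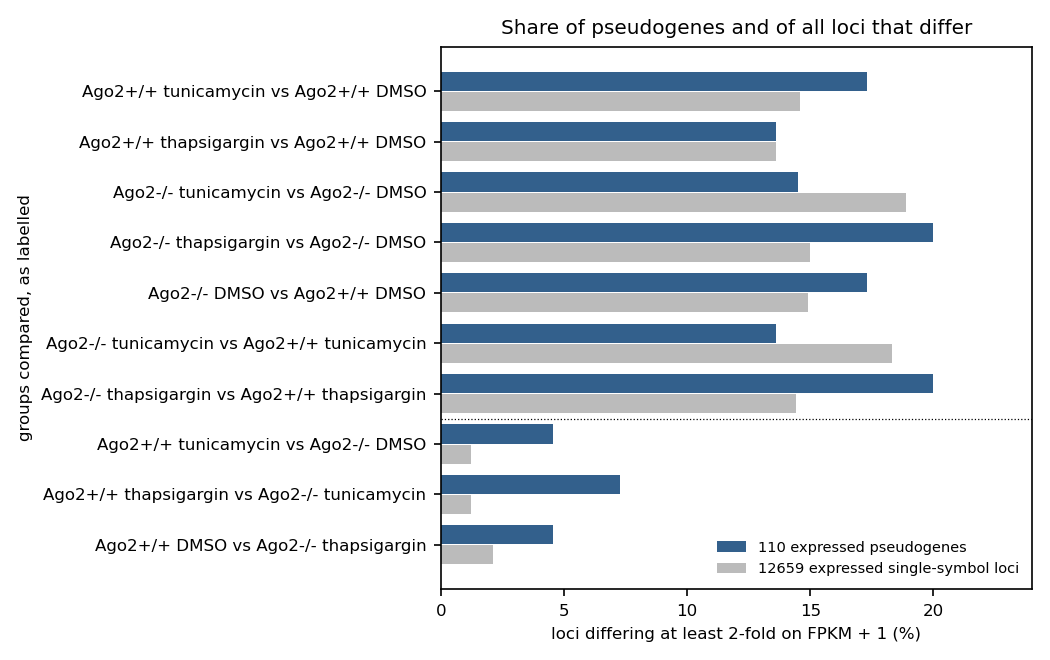
Percent of loci whose FPKM + 1 differed at least 2-fold between 2 groups, for the 110 members and for the 12659 background loci, with the 7 comparisons of the design above the dotted line and the 3 close pairs below it. Above the line the members' bars are longer in some comparisons and shorter in others. Between the labelled genotypes they stand at 20% against 14.4% with thapsigargin, and at 13.6% against 18.3% with tunicamycin. Below the line the members' bars, at 4.55% to 7.27%, exceed the background's 1.22% to 2.12%.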

How the data were processed

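RNA of 18 MEF libraries, 3 per group, was sequenced by the authors. Per the labels and the study's methods, reads were checked with FastQC 0.11.7, aligned to GRCm38 with HISAT2 2.1.0, assembled with StringTie 1.3.4d and quantified with Cuffdiff 2.2.1. Not given in the sources used here are the scaling of libraries, the use of strand and the sharing of reads that match several loci. The authors deposited 1 table of 772485 lines, 51499 loci by 15 pairs of groups, holding for each locus the FPKM of each group. Its other columns hold the authors' own fold changes, test statistics, p-values and q-values, and these were not used. The FPKM of a locus was the same in all its lines.

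Values were compared as log2(FPKM + 1) with Python 3.11.15 and pandas 2.3.3, and a difference of 1 was counted. Depth is unknown and there is 1 FPKM value per group, so no test, interval or replicate error could be computed from these values. The counting step was run on a copied group in which some loci were given known folds, without noise. That run checks only that the code counts as set, and tells nothing of the error of the counts. Groups follow the sample titles, where DCR1 stands for the groups labelled Ago2+/+ and AGO2 for those labelled Ago2-/-. Members, gene lists and the close pairs were chosen with earlier results of these data known. The named members are the 4 markers of the set, the 20 with the largest range, the 6 highest among those with a range under 1, and the 3 nearest to the threshold on each side. Some of these are not reported here. Gm10260, Gm12191, Rpsa-ps5, Gm8226, Gm10020, Gm8885, Rpl5-ps2, Rps13-ps4, Rpl34-ps2, Rps18-ps3, Rpl17-ps4, Rpl35a-ps3, Rpl30-ps8 and the host genes were named after their values were seen. Gene models, types and sequences came from GENCODE on GRCm38, and copies were aligned to parents with blastn 2.17.0. Alternatives were a pseudocount of 0.1, a 4-fold threshold, centring on the median, no filter on low values, and detection at 0.5 and 2 FPKM.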

Additional observations from a re-analysis of the deposited data

Results flagged for a closer look

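Opposite differences from DMSO in the 2 labelled genotypes, each at least 2-fold, drew attention to the pseudogenes named here. With 1 value per group, the difference between the genotypes was not tested. For tunicamycin, the difference from DMSO on the log2(FPKM + 1) scale was 1.62 in Ago2+/+ and -6.71 in Ago2-/- for Rpl7a-ps11, 5.14 and -5.65 for Rpl5-ps1, and 3.12 and -1.7 for Rps2-ps9. It was 1.83 and -1.92 for Rps12-ps26, -4.06 and 3.93 for Rpl30-ps10, and -3.17 and 2.6 for Rpl30-ps1.

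For thapsigargin, the difference from DMSO was -4.76 in Ago2+/+ and 4.94 in Ago2-/- for Rps13-ps1, -1.63 and 1.47 for Rps13-ps4, and -3.47 and 3.74 for Rps15a-ps8. Among the Rps2 copies it was -3.36 and 2.29 for Rps2-ps10, -2.68 and 2.45 for Rps2-ps13, 2.86 and -3.57 for Rps2-ps9, and 1.84 and -2.65 for Rps2-ps6. The values were -2.01 and 2.68 for Rpl34-ps1, -1.62 and 1.26 for Rpl34-ps2, 2.54 and -2.25 for Rps18-ps1, and -1.67 and 1.68 for Rps18-ps3. The groups compared here fall into the close pairs that cross the labels: Ago2-/- DMSO and Ago2+/+ tunicamycin were close, as were Ago2+/+ DMSO and Ago2-/- thapsigargin.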

How the results depend on the processing

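Centring on the median of all loci shifted groups by at most 0.045 on the log2 scale. It left every count of differing members within 1.5 times its value. Detection at 0.5 or 2 FPKM did so for the 6 counts of members that were on. Including the loci under 1 FPKM could not change the counts of differing members, since such a locus cannot reach a difference of 1 in log2(FPKM + 1). With a pseudocount of 0.1 the count went to 23 for Ago2+/+ thapsigargin against DMSO and to 8, 14 and 10 in pairs A, B and C, and the other counts, including the members with a range above the parent's (90), stayed within 1.5 times. At that pseudocount the members' share for Ago2+/+ thapsigargin against DMSO was 20.9%, against 20.1% of the background, and in pairs A, B and C it was 7.27%, 12.7% and 9.09%, against 2.01%, 2.31% and 4.9% of the background. At a 4-fold threshold, by construction stricter, the counts were 11 and 7 for tunicamycin in Ago2+/+ and Ago2-/-, 12, 9 and 11 between genotypes with DMSO, tunicamycin and thapsigargin, and 2 and 5 in pairs A and B. Of 203 differences of named members, 22 crossed 2-fold with the pseudocount of 0.1 and 1 with centring, and none that was counted changed sign. Including loci with several symbols gave no value, since none matched. Leaving out single libraries could not be run because the table holds 1 value per group. No paired analysis was possible because the values of the 3 libraries of a group were pooled by the authors. Depth is unknown, so values near 1 FPKM carry an unknown counting error.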
